A study of Mus musculus with 3 samples.

Results

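Fragments of the nuclear-encoded ribosomal RNAs (rRNAs) were followed in small RNA libraries of HL-1 cells, a contracting mouse line of atrial cardiac muscle. A fragment was a distinct sequenced insert of 18 to 25 nt that matched, exactly and in sense, a gene of type rRNA outside the mitochondrial genome in the GENCODE vM1 annotation of the mouse genome build NCBIM37. Of 1738385 distinct inserts of that length in either library, 1817 were such fragments, with 1399 of 949094 in the library labelled siSrf1 and 1250 of 931554 in the library labelled siSrf2. The annotation held 332 such genes, of which 330 were 5S genes or copies and 2 were 5.8S genes. Of the 5S genes, 309 were typed by name and 21 by sequence identity to 5S. The longer rRNAs of both ribosomal subunits were not among these genes and were not analysed here.

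HL-1 cells had been transfected with siRNA and a lipid reagent (per well 9 µl of siRNA at 20 µM) and harvested for total RNA after 48 h, per the labels. The study set siRNAs against Srf, the gene of serum response factor, which drives muscle genes, beside an unspecific siRNA. Each group is a single library, and siNon was not analysed here. Titles and siRNA entries conflict: siSrf1 has Srf si2 as its entry, and siSrf2 has siNon. Directions below therefore name only the libraries labelled siSrf1 and siSrf2, written siSrf1 and siSrf2 for short. Small RNA inserts do not measure Srf mRNA, so the knockdown itself was not checked.

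The 5S and 5.8S rRNAs are both part of the large ribosomal subunit. RNA polymerase III transcribes 5S rRNA from many repeated genes, using a promoter inside the gene and stopping in a run of T, whereas 5.8S rRNA is cut from the long precursor made by RNA polymerase I. In the folded 5S molecule the first bases pair with the last bases, and short pieces of abundant rRNAs are commonly read in small RNA libraries.

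Nearly all rRNA reads that matched exactly came from 1 sequence of 119 nt. Every 5S position below is counted along it, from 1 at its 5′ end. With 1 mismatch allowed, 5.8S held 15079 of 47320 rRNA reads in siSrf1 and 11289 of 37783 in siSrf2. The 119 nt sequence is carried without a difference by 32 annotated 5S genes, all among the 64 5S genes on chromosome 8. Shown are the fragment with the most reads summed over both libraries, which also differed between them, and the fragment with the largest ratio, written 5′ to 3′. On 1 of these single-exon rRNA genes, on the minus strand of NCBIM37, bases 55 to 72 lie at chr8:126062733-126062750 and bases 28 to 49 at chr8:126062756-126062777. Capitals mark bases of the stretch from 38 to 51, which at least 40% of the reads on this copy covered in both libraries.
5S 55 to 72: agcagggtcgggcctggt
5S 28 to 49: cccgatctcgTCTGATCTCGGA

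The library labelled siSrf1 held 14911499 reads and the library labelled siSrf2 held 14518157, of which 7748874 and 7013026 carried an insert of 18 to 25 nt. Cardiac miRNAs marked the cells in both libraries: hairpins of miR-1, miR-133, miR-208 and miR-499 took 3288890 and 2372708 reads, of which Mir1a-1 alone had 3210782 and 2299531. Other cardiac hairpins had other ratios, such as Mir133a-1 with 6649 and 11259 reads (log2 ratio siSrf1 over siSrf2 -0.90) and Mir208a with 210 and 305 (-0.68). By contrast, 6 hairpins of pluripotent cells had 0 and the neuronal list had 15 and 7. Hairpins of the endothelial list had 1966 and 1515 reads, of the blood list 377 and 365, of the liver list 32 and 57, and of the epithelial list 31 and 22, with miR-141 at 0 in both. Mitochondrial rRNA and snoRNAs differed between the libraries by more than nuclear rRNA did. Mitochondrial rRNA had 2846 and 8478 reads (log2 ratio -1.72) and snoRNAs had 5236 and 10693 (-1.17), against 4816917 and 4111859 for miRNA hairpins (0.08). With TMM factors, described below, these ratios were -1.23, -0.69 and 0.57. In these bulk samples, fewer cells of a type and less RNA per cell cannot be told apart.

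Nuclear rRNA fragments made up nearly the same share of both libraries. The library labelled siSrf1 gave 27517 rRNA reads, or 0.355% of its inserts of 18 to 25 nt (exact Clopper-Pearson 95% interval 0.351 to 0.359%). The library labelled siSrf2 gave 23075 reads, or 0.329% (0.325 to 0.333%). Scaled to all inserts of that length, the log2 ratio was 0.11 (0.08 to 0.14), a 1.08-fold difference toward the library labelled siSrf1. Intervals here cover counting error only, since reads were not marked by molecule and can be PCR copies, and no p-value was computed from single libraries. The difference was not larger than what another scaling adds: with TMM factors over 265 small RNA gene names every log2 ratio rose by 0.49, and the rRNA ratio became 0.60. With miRNA hairpin reads as the scale it was 0.03.

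The 5S rRNA supplied 27340 and 22951 of these reads (0.353% and 0.327% of inserts, log2 ratio 0.11), in 1767 distinct fragments. The 5.8S rRNA supplied 177 and 124 reads (0.00228% and 0.00177%, log2 ratio 0.37, 0.03 to 0.71), in 50 distinct fragments. With 1 mismatch allowed it had 15079 and 11289 reads, so the exact 5.8S counts depend on the annotated sequence. Only 2 and 4 reads matched a nuclear rRNA gene of either type in antisense and none in sense. Of the 5S reads, 26402 (96.6%) and 22209 (96.8%) matched the shared 119 nt copy. These were 704 distinct fragments, 89.3% of the 788 fragments of 18 to 25 nt that the copy can give. The 5S sequence was thus read almost end to end, at very unequal depth.

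Reads that matched a single 5S gene were few. In all, 224 of the 330 5S genes matched at least 1 read, but only 96 had reads that matched no other rRNA gene, summing to 567 and 420. The 5S genes with the most reads of their own were AC134596.1 on chromosome 12 (53 reads in the library labelled siSrf1 and 46 in siSrf2), n-R5s211 (38 and 29) and n-R5s210 (32 and 31) on chromosome 1, n-R5s68 on chromosome 11 (44 and 15), AC126690.2 on chromosome 14 (29 and 24) and AL732357.1 on chromosome 2 (26 and 22). Fragments absent from the shared copy made up 3.43% (3.22 to 3.65%) and 3.23% (3.01 to 3.47%) of 5S reads, so the libraries did not differ in this share beyond counting error. Whether reads that matched a single 5S gene came from that gene was not tested. Single changes that an annotated copy holds were read in a pooled 0.281% and 0.235% of inserts. Changes that no annotated copy holds were read in 0.295% and 0.241%. Copies sharing a sequence cannot be told apart: 1.78% and 1.52% of 5S reads had a single match in the genome. A 5S-like stretch in an exon of the protein-coding gene Tmem38b matched 9366 and 8403 of the 5S reads, and one in Sp100 matched 995 and 727. Over both libraries, the annotated 5S genes n-R5s185 on chromosome 4 and n-R5s215 on chromosome 1 matched 17769 and 1722 reads. These equal the totals of the Tmem38b and Sp100 stretches, so the stretches appear to be those genes, which are among the 330. Reads at those stretches remain uncertain in origin.

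Starts of 5S fragments gathered in a few stretches of the copy. Of the 102 positions at which a fragment of 18 nt can start, 100 had a read and 82 had at least 50 reads over both libraries. Position 37 was the most frequent start over the libraries together, with 1689 reads (6.40% of reads on the copy, 6.10 to 6.70%) in siSrf1 and 1279 (5.76%, 5.46 to 6.07%) in siSrf2. Around it, starts 32 (1315 and 1043 reads), 36 (1333 and 1014) and 31 (1286 and 948) were the next of this stretch. Together, starts 31 to 38 held 9663 reads (36.6%) and 7419 reads (33.4%). Apart from this stretch stood position 55, with 905 and 1431 reads and the most frequent start of siSrf2 alone, and position 1, the 5′ end of the molecule, with 970 and 1214. The stretches were delimited after the profile had been seen, and their boundaries have no meaning beyond this description.

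**Figure D1:**
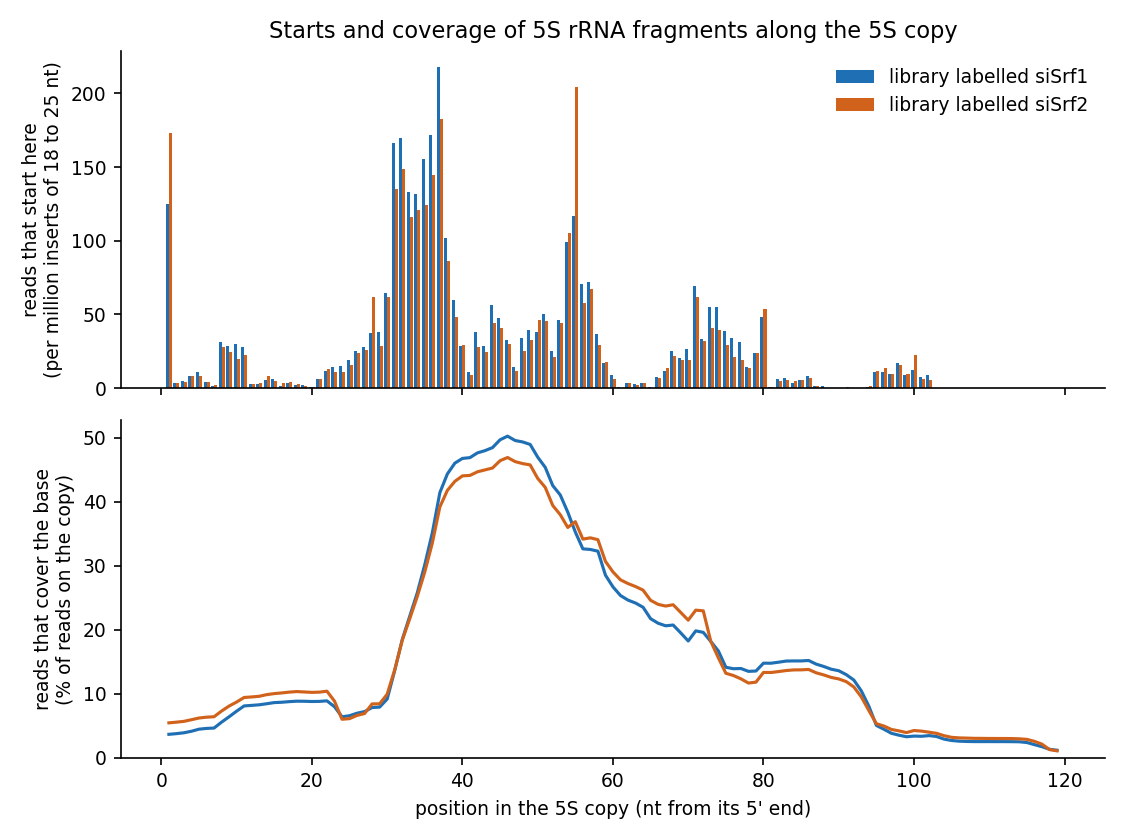
Upper panel: reads that start at each base of the 119 nt 5S copy, as RPM (reads scaled to inserts of 18 to 25 nt), for siSrf1 (blue) and siSrf2 (orange). Lower panel: percent of reads on the copy that cover each base. On that scale start 37 reached 218 and 182, start 55 117 and 204, start 1 125 and 173, and coverage peaked at base 46 with 50.3% and 46.9%.

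Coverage followed from these starts. Base 46 was the most covered in both libraries, lying in 50.3% of the reads on the copy in siSrf1 and 46.9% in siSrf2. Starts at bases 1 to 40 held 55.7% and 54.5% of reads, and those at bases 41 to 80 held 40.7% and 41.5%. Those at bases 81 to 119 held 3.51% and 4.02%, but fewer starts are possible there, since 18 nt cannot start past base 102. The match rule also left out 1192 and 1027 inserts that ran into the T after the annotated end. Starts 81 to 94 were sparse, with 265 and 230 reads over 14 positions (1.0% and 1.04%), most of them at starts 82 to 86. Starts 61 to 65 were also sparse, from 5 and 1 reads at start 61 to 29 and 23 at start 64. Ends were also unequal: base 54 ended 1723 and 1230 reads, base 53 ended 1477 and 1182, and base 55 ended 1244 and 1010. Base 72 was a frequent end in the library labelled siSrf2, with 1348 reads against 802 (log2 ratio -0.89).

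The profile of starts was much alike in both libraries. Over the 99 positions with a read in both, log10 start counts had a Pearson r of 0.98, a description over neighbouring positions of the same 2 libraries that share the copy's base composition. By this scaling 0 of the 82 starts differed by 2-fold or more, and their log2 ratios ran from -0.89 to 0.73 with a median of 0.19. The interval lay above 0 at 26 starts, across 0 at 51 and below 0 at 5. Of all distinct inserts with 50 reads, 19.2% differed by 2-fold or more with the interval on 1 side of 0. Their interval lay above 0 in 19.3% and below 0 in 25.2%, but a start sums several inserts. The 5 starts below 0 were bases 1, 28, 50, 55 and 100. These counts hold for the scaling to all inserts of 18 to 25 nt. With TMM factors the interval lay above 0 at 60 starts, across 0 at 19 and below 0 at 3 (28, 55 and 100). With them 5 starts (10, 60, 76, 77 and 102) passed 2-fold toward siSrf1, as did 18.5% of all distinct inserts with 50 reads. DESeq2 factors gave the same counts of starts. Bases 1, 28, 50, 55 and 100 were also the only starts of the 82 whose share of the reads on the copy was larger in the library labelled siSrf2 with intervals that did not meet, a comparison that no scaling between libraries touches. The share was larger in siSrf1 at 8 starts (10, 31, 35, 37, 73, 74, 76 and 77), and intervals met at 69.

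At the bases next to each of the 5 starts, the interval lay across or above 0. Start 55 had 905 reads in siSrf1 (3.43%, 3.21 to 3.65%) and 1431 in siSrf2 (6.44%, 6.12 to 6.77%), a log2 ratio of -0.80 (-0.93 to -0.68). Start 1 had 3.67% (3.45 to 3.91%) and 5.47% (5.17 to 5.77%), a log2 ratio of -0.47 (-0.59 to -0.34) that became 0.02 with TMM factors. Start 28 had 289 and 436 reads (-0.74), start 50 had 297 and 322 (-0.26, but 0.22 with TMM factors) and start 100 had 95 and 160 (-0.89). On the other side, starts 71 to 77 held 2457 reads (9.31%) in siSrf1 and 1706 (7.68%) in siSrf2, a log2 ratio of 0.38 (0.29 to 0.47). The highest single ratio was at start 77, with 245 and 133 reads (0.73).

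**Figure D2:**
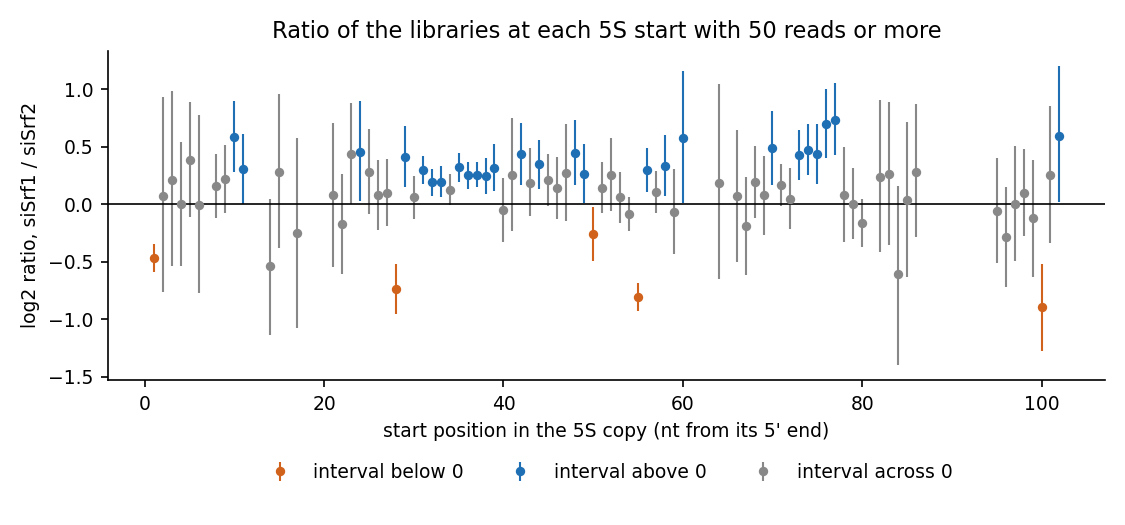
Log2 ratio of reads (siSrf1 over siSrf2, scaled to inserts of 18 to 25 nt) at each of the 82 start positions with at least 50 reads, against position in the 5S copy. Bars are exact 95% intervals for counting error. Starts 1, 28, 50, 55 and 100 lie below 0 with their whole interval, 26 starts lie above 0 and 51 cross it.

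Single fragments were then compared by a fixed size rule: at least 50 reads over both libraries, a difference of at least 2-fold, and an interval on 1 side of 0. Of the 1817 fragments, 239 had 50 reads (238 of 5S and 1 of 5.8S) and 1578 did not, and the 239 held 83.4% and 83.2% of all rRNA reads. Past the rule were 9 of the 239 (3.77%), against 19.2% of all 8309 distinct inserts with as many reads. Of the 9, 7 were higher in the library labelled siSrf2, where 13.8% of all inserts were, and 2 in siSrf1, where 5.34% were. The split turned with the scaling, which moves all ratios alike: it was 38 higher in siSrf1 and 2 higher in siSrf2 with TMM factors, and 33 and 2 with DESeq2 size factors. With TMM factors 15.9% of the fragments were thus higher in siSrf1, where 18.5% of all inserts were, and 0.837% in siSrf2, where 7.58% were. With DESeq2 factors the shares were 13.8% beside 16.6% of all inserts, and 0.837% beside 7.98%. The median log2 ratio of the 239 was 0.22, and 176 of them (73.6%) lay above 0, beside a median of 0.02 and 51.3% for all inserts. Fragments overlap and share source molecules, so they are not independent counts.

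Summed over both libraries, bases 55 to 72 were the most read fragment, with 370 reads in siSrf1 and 882 in siSrf2. In siSrf1 alone, bases 37 to 54, 1 to 23 and 37 to 55 had more reads. It took 1.35% (1.22 to 1.5%) and 3.84% (3.60 to 4.10%) of 5S reads, a log2 ratio of -1.40 (-1.58 to -1.22) or 2.63-fold. It also lies in the Tmem38b exon stretch, and its 70 exact genome matches included 66 in rRNA genes. It was rich in G and C (72.2%, against 50% for bases 37 to 54). The ratio at start 55 varied with where the fragment ended. At 17 nt, outside the length rule, there were 225 and 429 reads (-1.07), while at 19 nt there were 265 and 300 (-0.32) and at 20 nt 235 and 199 (0.10). With TMM factors the ratio of bases 55 to 72 was -0.91 and with DESeq2 factors -0.96, both short of 2-fold.

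The largest ratio belonged to bases 28 to 49, a 22 nt fragment read 43 times in siSrf1 and 214 times in siSrf2. It took 0.157% (0.114 to 0.212%) and 0.932% (0.812 to 1.07%) of 5S reads. Its log2 ratio was -2.45 (-2.97 to -1.98), or 5.45-fold, and none of its 46 genome matches lay in an exon of another annotated gene. Of other lengths from start 28, 18 nt gave 41 and 40 reads, 19 nt 104 and 85, and 20 nt 51 and 27. Lengths next to 22 nt had more reads in siSrf2, with 7 and 17 at 21 nt and 23 and 38 at 23 nt (-0.86, -1.68 to -0.08). Bases 14 to 33 were read 11 and 40 times (-1.96, -3.12 to -1.02). These were the only fragments higher in siSrf2 that stayed past the rule with TMM factors.

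The other fragments higher in siSrf2 overlapped bases 55 to 72 or lay near the 3′ end. Bases 50 to 72 had 22 and 52 reads (-1.37), bases 54 to 77 had 17 and 41 (-1.39), bases 54 to 76 had 16 and 37 (-1.33) and bases 100 to 117 had 49 and 107 (-1.26, -1.79 to -0.77). At start 50, the 17 nt insert outside the length rule had 64 and 179 reads (-1.62). In the opposite direction, bases 75 to 92 were read 80 times in siSrf1 and 35 times in siSrf2 (1.04, 0.46 to 1.67), and bases 77 to 95 were read 41 and 13 times (1.48, 0.58 to 2.54). The reads of these 6 fragments, and those of bases 55 to 72, also match the Tmem38b exon stretch. That stretch matched as many reads as the annotated 5S gene n-R5s185 and appears to be that gene. Which of its matches a read came from is uncertain. Without reads shared with another gene type, only bases 28 to 49 and 14 to 33 stayed past the rule, of 146 fragments tested. Since the Tmem38b stretch appears to be an rRNA gene, this filter cannot separate rRNA from other gene types. It removed the reads of the 6 fragments and of bases 55 to 72 because their sequence also occurs in that stretch. Bases 75 to 92 fell short of 2-fold when scaled to miRNA hairpins (0.95). Bases 54 to 76 and bases 100 to 117 are named only to complete the 9 and were chosen after their values were seen.

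**Figure D3:**
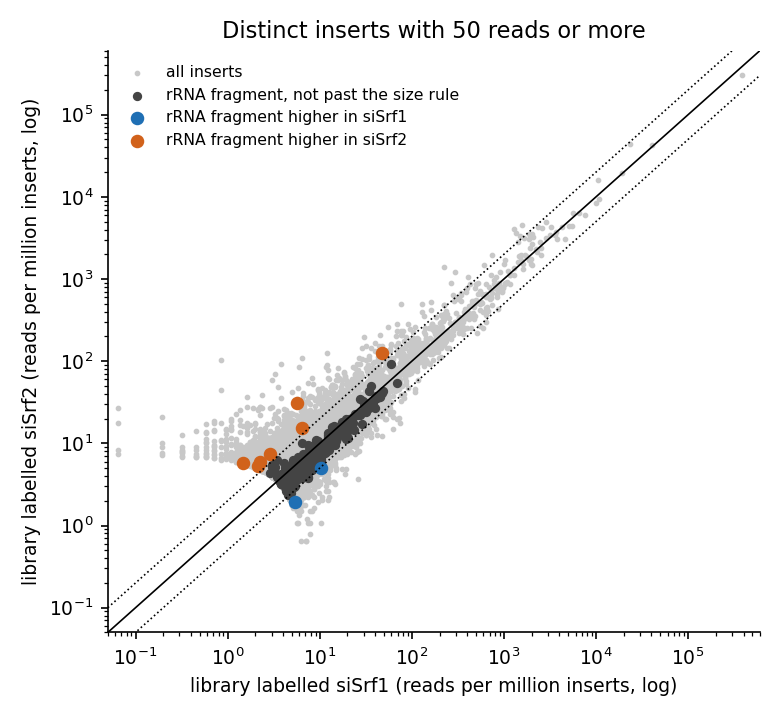
Level as RPM (reads scaled to inserts of 18 to 25 nt) in both libraries (log axes, 0.5 reads added to each count) for all 8309 distinct inserts with at least 50 reads (grey) and the 239 rRNA fragments among them. Solid line: equal levels, and dotted lines: 2-fold. The 7 orange fragments are higher in siSrf2 and the 2 blue ones in siSrf1, and 230 dark fragments are not past the size rule.

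The other leading fragments differed less. The 5′ end gave 2 fragments among the most read: bases 1 to 23, with 462 reads in siSrf1 and 649 in siSrf2 (-0.63, -0.81 to -0.46), and bases 1 to 22, with 282 and 349 (-0.45, -0.68 to -0.22). The second changed sign with TMM factors (0.03). In the central stretch, bases 37 to 54 had 535 and 385 reads (0.33, 0.14 to 0.52), bases 37 to 55 had 375 and 301 (0.17), bases 36 to 53 had 365 and 287 (0.20), bases 31 to 49 had 353 and 263 (0.28) and bases 36 to 54 had 350 and 254 (0.32). All 5 central ratios lay above 0 and short of 2-fold, and the intervals of bases 37 to 55 and 36 to 53 crossed 0. As a share of 5S reads, bases 37 to 54 took 1.96% (1.80 to 2.13%) and 1.68% (1.52 to 1.85%), intervals that meet. Of the 239 fragments, 0 occurred within any of 2743 RefSeq miRNA sequences, mature or hairpin.

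Short 5S fragments outnumbered long ones. Reads fell with every added base in siSrf1, and in siSrf2 with the exception of 22 nt, which had more reads than 21 nt (2710 and 2548). At 18 nt there were 6784 reads (24.8% of 5S reads) in siSrf1 and 5674 (24.7%) in siSrf2, at 22 nt 10.2% and 11.8%, and at 25 nt 630 (2.30%) and 563 (2.45%). The log2 ratio of the libraries was 0.26 at 21 nt and -0.11 at 22 nt. Below the allowed range, 15, 16 and 17 nt gave 4163, 6181 and 6580 reads in siSrf1 and 3431, 5853 and 4977 in siSrf2. Single starts did not follow this slope. From start 1 there were 16 and 19 reads at 19 nt, 282 and 349 at 22 nt, 462 and 649 at 23 nt, and 68 and 67 at 24 nt. From start 37 there were 535 and 385 at 18 nt, 77 and 55 at 21 nt, and 316 and 265 at 22 nt. The length profile of rRNA differed from that of miRNA hairpins, whose inserts of 22 nt made up 83.8% and 80.9%, against 10.1% and 11.8% for nuclear rRNA. Inserts of 18 and 19 nt made up 46.6% and 45.1% of nuclear rRNA reads, 38.6% and 36.6% of snRNA reads and 0.614% and 0.670% of miRNA hairpin reads. These shares were 47.8% and 40.6% for mitochondrial tRNA, 31.4% and 19.2% for mitochondrial rRNA, and 16.6% and 23.4% for snoRNA.

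**Figure D4:**
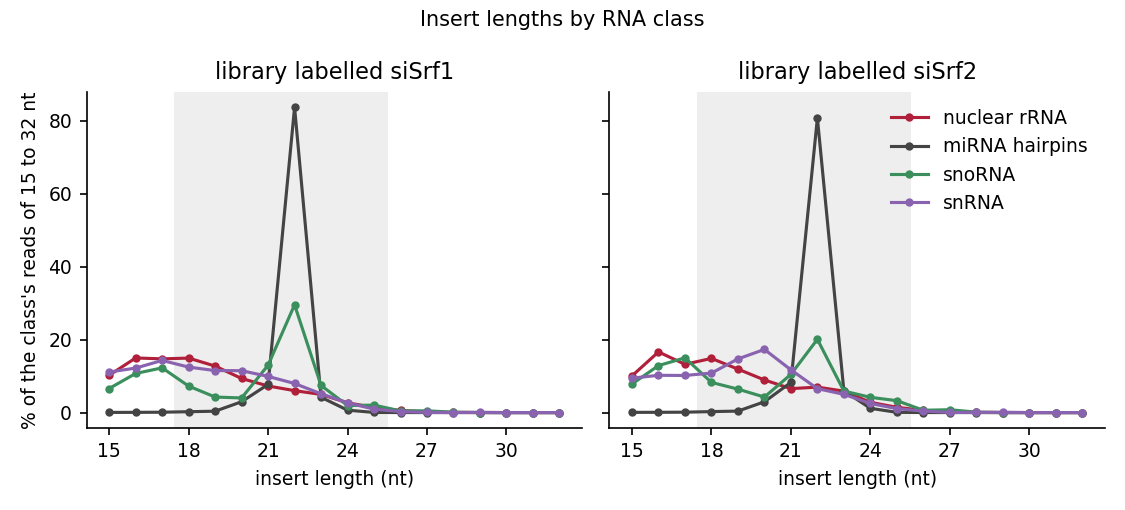
Percent of each class's reads of 15 to 32 nt at each insert length, in the library labelled siSrf1 (left) and siSrf2 (right). Lines are nuclear rRNA, miRNA hairpins, snoRNA and snRNA, and the grey band is the 18 to 25 nt used elsewhere. Hairpin inserts peak at 22 nt, while nuclear rRNA has no such peak and is lowest at the long end of the band.

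Fragments of the 3′ end ran past the annotated gene. All 32 identical copies are followed in the genome by at least 4 T, the bases at which RNA polymerase III stops, and inserts of 18 to 25 nt were counted by how many of them they held. Those ending at the annotated last base numbered 314 in siSrf1 and 242 in siSrf2. With 1 further T there were 885 and 780, with 2 there were 297 and 230, with 3 there were 10 and 17, and with 4 there were 0 in both, which allows up to 3. Thus 79.2% (77 to 81.2%) of 1506 inserts at the gene end and 80.9% (78.7 to 83.1%) of 1269 carried T, intervals that meet. Only those with none belong to the fragments counted above, since the rule asked for a match inside the annotated gene.

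Bases not in the copy were rare at other ends. A base that the copy does not hold was added to the 3′ end of 303 inserts (1.5%, 1.34 to 1.68%) in siSrf1 and 248 (1.46%, 1.29 to 1.65%) in siSrf2. The added base was A in 0.546% and 0.666%, T in 0.466% and 0.477%, C in 0.362% and 0.218%, and G in 0.129% and 0.100%. For C the intervals were 0.284 to 0.455% and 0.154 to 0.300%, so they met. Single internal changes that an annotated 5S copy holds (138 possible) were read in a pooled 0.281% and 0.235% of inserts over the changed base. The 171 changes that no annotated copy holds gave a pooled 0.295% and 0.241%. Medians over the changes were 0.196% and 0.189% for those in a copy and 0.238% and 0.156% for those in none, so the order of the 2 kinds differed between the libraries.

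Few 5.8S reads matched the annotated genes exactly. Of the 177 and 124 reads, 172 and 121 matched the 148 nt gene n-R5-8s1 and no other rRNA gene. A single fragment, bases 69 to 86 of it, held 118 and 81 reads (0.40, -0.02 to 0.83), and no other reached 50. Among these exact reads, the most frequent starts were 69 (118 and 83 reads) and 68 (24 and 21), and other starts had at most 6 reads in a library. Allowing 1 mismatch added 14902 and 11165 reads, for 15079 and 11289 in all (log2 ratio 0.27, 0.24 to 0.31). Most of the added reads carried the same few changes, written as the gene's base, its position from the 5′ end and the insert's base. These were T87C in 6939 (46.6%) and 4862 (43.5%), C67T in 5830 (39.1%) and 4642 (41.6%), and C31G in 700 (4.70%) and 491 (4.40%). Some of the added reads lay within 1 mismatch of the other annotated 5.8S gene only, and have no position on n-R5-8s1. Inserts within 1 mismatch of a 5.8S gene thus far outnumbered exact ones, and the exact counts are a small part of them. Between the bases of C67T and T87C, an insert of 18 nt or longer can start only at 68 or 69. The leading exact starts, and the fragment of bases 69 to 86, were thus limited by the match rule. They cannot show where 5.8S fragments most often begin. These details were examined after the low exact counts had been seen.

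**Figure D5:**
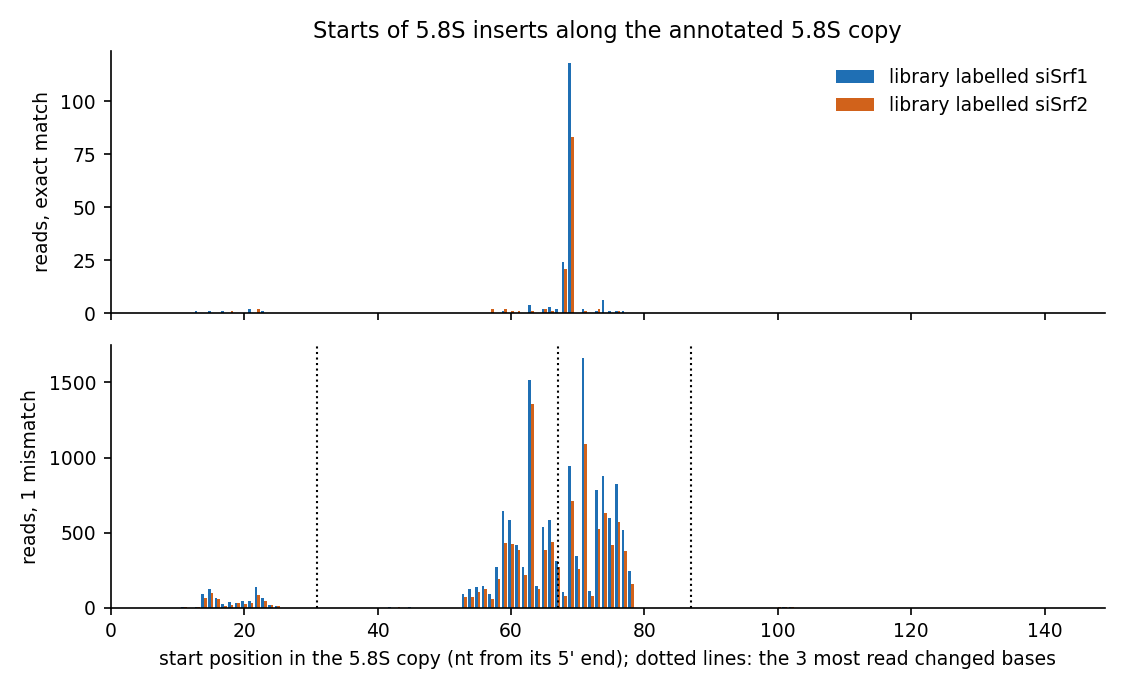
Reads by start position along the annotated 5.8S gene, for inserts that match exactly (upper panel) and with 1 mismatch (lower panel), in both libraries. Dotted lines mark bases 31, 67 and 87, where most changes fell. Exact reads sit mostly at start 69. Between bases 67 and 87, an insert of 18 nt or longer can start only at 68 or 69. Starts 63 and 71 lead among the inserts with 1 mismatch (1515 and 1356, 1663 and 1089 reads). An insert changed at both bases 67 and 87 exceeds the 1 mismatch allowed and is not counted, so the match rule limits these starts too.

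Other RNAs of ribosome assembly and kindred small RNAs, from a list of names, were mostly read more in siSrf2. Of 265 small RNA gene names with at least 50 reads, 30.6% were higher in siSrf2 and 0.377% in siSrf1 by the same size rule, with a median log2 ratio of -0.44. The snoRNA U3, which guides early cleavage of the rRNA precursor, had 724 and 1339 reads (-1.03). U8 (42 and 111, -1.54), U14 (454 and 1705, -2.05) and U22 (24 and 44, -1.0) also passed the rule toward siSrf2, and U13 (21 and 29) did not. RNase P RNA, which cuts tRNA precursors, had 27 and 27, and did not pass. RNase MRP RNA (3 and 11) and U17 (2 and 1) had under 50 reads. Y RNAs, small RNAs bound by the Ro protein, had 1423 and 2735 reads (-1.09). The mitochondrial rRNAs mt-Rnr1 (808 and 2270, -1.63) and mt-Rnr2 (2038 and 6208, -1.75) also passed toward siSrf2. In all, 7 of the 11 names with a match passed toward siSrf2, 2 did not pass and 2 had too few reads, and 7SL RNA was not matched by name. With TMM factors U3 (-0.55), U22 (-0.52) and Y RNA (-0.60) fell short of 2-fold, and RNase P RNA turned from -0.14 to 0.34. Nuclear rRNA as a class had a log2 ratio of 0.11 beside these values, and their relation was not tested.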

How the data were processed

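Per the labels' protocols, small RNA from total RNA went through an Illumina kit to the Genome Analyzer. The authors deposited raw counts of reads per distinct 36 nt sequence with the 3′ adapter in place. The aligner, genome build and read filter were not given in the sources used here.

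Adapter was found by its first 8 nt, or its first 4 nt or more where the read ended, and inserts of 15 nt or more without N were kept. Exact matches of 18 to 25 nt inserts to GENCODE vM1 genes and the NCBIM37 genome were found in Python 3.11.15 with numba 0.67.0, numpy 2.4.6 and pysam 0.24.0, and the search was checked on simulated data. Reads were scaled to all inserts of 18 to 25 nt. Log2 ratios used a pseudocount of 0.5 reads and exact binomial 95% intervals conditional on the sum of both counts, and shares Clopper-Pearson intervals (scipy 1.17.1). Groups follow the titles. Precision is limited by counts of 27517 and 23075 rRNA reads.

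Named were, per type, the 8 fragments and 6 starts with the most reads, the 5 largest ratios in each direction past the size rule, and the 6 copies with the most reads of their own. For 5.8S, fragments and starts of under 20 reads are given only as a range. Members and lists were chosen with earlier results of these data known. Alternatives included edgeR 4.0.16 TMM and DESeq2 1.42.0 size factors (R 4.3.3), other totals, lengths, mismatches, adapter lengths and read minimums. RefSeq miRNA sequences (mature and hairpin) were searched. Figures were drawn with matplotlib 3.10.9. The whole sequence of the 5S copy is not reported here.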

Additional observations from a re-analysis of the deposited data

Results flagged for a closer look

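Signal outside the fragments counted above appeared in both libraries. Inserts of 15 to 17 nt matched 5S genes in 16924 reads of the library labelled siSrf1 and 14261 of siSrf2, and inserts of 26 to 32 nt in 375 and 309. Inserts at the 5S gene end that carried T beyond the annotated last base numbered 1192 and 1027. Inserts that matched 5.8S only with 1 mismatch numbered 14902 and 11165. All of these lie outside the length or match rule of the fragments counted above. The library titled siNon was not used for comparison.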

How the results depend on the processing

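The rRNA and 5S log2 ratios were above 0 as point values under every alternative run, although the 5S interval crossed 0 (-0.00123 to 0.0495) with miRNA hairpin scaling. They were 0.16 and 0.16 when scaled to all inserts of 15 nt or longer, 0.026 and 0.024 to miRNA hairpin inserts, 0.60 and 0.59 with TMM factors, 0.55 and 0.55 with DESeq2 factors, 0.0414 and 0.0408 at 20 to 24 nt, 0.18 and 0.14 with 1 mismatch, and 0.16 and 0.16 without shared matches. At 16 to 28 nt the rRNA ratio was 0.14. The 5.8S ratio was 0.85 with TMM and 0.80 with DESeq2 factors, and its interval crossed 0 with miRNA hairpin scaling (0.28, -0.05 to 0.63), without sequences seen once (0.38, -0.01 to 0.78) and at 20 to 24 nt (0.64, -0.52 to 1.95). The 9 fragments past the size rule of 239 became 40 with TMM (16.7%, beside 26.1% of all inserts) and 35 with DESeq2 (14.6%, beside 24.6%). They became 2 of 66 at 200 reads (16.4% of all inserts) and 1 of 14 at 500 reads (15.1% of all inserts). Other settings gave 17 of 344 at 16 to 28 nt, 5 of 132 at 20 to 24 nt, 2 of 146 without shared matches and 21 of 470 at 10 reads. For these other settings the share over all inserts was not computed, so the counts have no background beside them. The 5S share of inserts in siSrf1 and siSrf2 was 0.470% and 0.429% at 16 to 28 nt, 0.201% and 0.195% at 20 to 24 nt, 0.416% and 0.378% with 1 mismatch, and 0.232% and 0.207% without shared matches. The 5.8S share was 0.0137% and 0.0113%, 0.000258% and 0.000161%, and 0.195% and 0.161% in the same order up to 1 mismatch. Start 37 held 5.42% of reads in siSrf2 at 16 to 28 nt, 5.68% and 4.98% at 20 to 24 nt, and 9.91% and 9.25% without shared matches. Of 16 named 5S fragments, bases 1 to 22 reversed with TMM (0.034), and 5 lost their place past the rule with TMM and the same number with DESeq2 factors. The factors shift all ratios alike, and length and match settings change which reads are counted. Leaving out shared matches removed reads of the Tmem38b and Sp100 stretches, which appear to be annotated rRNA genes. That setting thus cannot separate rRNA from other gene types. Other causes were not tested. No paired analysis was possible because there is 1 library in a group, and for the same reason no library could be left out. Fragments under 50 reads, most of the 1817, are limited by depth.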
